A study of Mus musculus with 8 samples.

Results

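The 40 genes described here encode proteins that work inside the lysosome, in its membrane or in its supply. They were taken by name from a list of lysosomal enzymes and membrane proteins, and all 40 were found among the 18833 genes of the deposited expression matrix. The matrix comes from single-cell RNA sequencing of oligodendrocytes, the cells that make myelin, in brains with and without microglia. It was read here to see how lysosomal genes compare between brains that have microglia and brains that lack them, gene by gene and as a mean, in every library and in each deposited cluster of cells.

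Each library came from the hippocampus or the cortex of 1 female mouse, on a mixed CBA:C57Bl6J background. Tissues are called here as the labels call them: the hippocampus was taken from both sides, and cortex stands for the whole left hemisphere less its hippocampus, olfactory bulb and cerebellum. WT mice (Fire +/+, bred from Fire Δ/+ crosses) were mice 1 and 4, and KO mice (Fire Δ/Δ) were mice 3 and 6, which gave 8 libraries, 4 per genotype. KO mice carry a deletion of the Fire enhancer on both copies of Csf1r, a receptor gene that microglia need. They have no microglia from development on, while macrophages along blood vessels remain, so the comparison is between whole brains that formed with and without microglia. The age was 1 month and 18 days for the pair 1 and 3, here the older pair, and 2 days less for the pair 4 and 6. Each tissue of each age pair was a batch of its own, with 1 WT and 1 KO library: batches 3 and 4 held the hippocampus and cortex of mice 1 and 3, and batches 5 and 6 those of mice 4 and 6. Libraries held from 904 to 2784 cells and from 12015360 to 27847948 unique molecular identifiers (UMIs), each of which marks 1 captured RNA molecule. Csf1r had 162 and 72 UMIs in the WT hippocampus of mice 1 and 4, 91 and 146 in the WT cortex, and at most 3 in any KO library.

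Lysosomes are acidic compartments in which cells break down proteins, glycans, lipids and worn organelles. A proton pump acidifies them, heavily glycosylated membrane proteins line them, and sorting receptors deliver newly made enzymes from the Golgi. In oligodendrocytes the lysosome is known for its part in the turnover of myelin lipids. Inherited loss of the lipid enzymes encoded by Galc or Arsa causes a leukodystrophy, a disease of myelin.

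Several features of the libraries come before the results. Of 12581 cells, 42 carried a barcode that a cell of another library also carried, which left 12560 different barcodes. The cortex library of KO mouse 3 stood apart from the other libraries. In 237 of 9257 genes (2.56%) its value lay far outside the range of the other 7 libraries, by a limit explained in the closing section. For the other libraries that number was between 11 and 34 genes. The genes of that library that stood apart included 5 of the lysosomal genes. Lamp1, the most abundant of them, was at 2.97 there on the log2 scale and between 3.37 and 3.58 elsewhere, and its differences between genotypes and between tissues are given with and without this library, as are those of some other genes that it moved. Without it, KO mouse 3 enters comparisons of genotypes as hippocampus alone, while the other mice average both tissues. Such values therefore also hold a difference between tissues. The authors judged batch 6 to be of lower quality than the rest. Between KO and WT mice over all oligodendrocytes, leaving out its 2 libraries left limma at 0 members called and no named gene with another sign. The other comparisons were not run without it.

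Markers were looked at in all libraries. The myelin genes Mbp and Mog had a UMI in all cells of the 8 libraries, at 35.6 to 46.0 and 14.2 to 16.2 UMIs per cell after division by size factors. Of 15 microglial genes, all 15 had UMIs in each WT library and 8 to 13 in each KO library. C1qa, a complement gene of microglia, was seen in 9.44% and 7.64% of hippocampal cells of WT mice 1 and 4, in 7.60% and 16.7% of their cortical cells, and in at most 0.103% of the cells in any KO library. P2ry12, a purine receptor gene of microglia, was seen in 3.72% to 8.82% of WT cells and in 0.279% to 0.553% of KO cells. Tmem119, a gene particular to microglia, was at 0 UMIs in the 4 KO libraries, and Trem2 and Siglech in 2 and 3 of them. RNA of these 5 microglial genes was therefore measured at a low level in the WT libraries and was near 0 in the KO libraries. Of the other lists, 3 also differed between genotypes in the hippocampus. The 5 endothelial genes summed to 0.149 and 0.168 UMIs per cell in the KO hippocampus of mice 3 and 6 and to 0.0367 and 0.0826 in that of WT mice 1 and 4, and the 4 genes of oligodendrocyte progenitors to 0.163 and 0.108 against 0.0938 and 0.0687. Of 6 genes of macrophages along blood vessels, all 6 were seen in both KO hippocampus libraries and 4 and 1 in those of WT mice 1 and 4, at sums of 0.00499 and 0.00587 against 0.00340 and 0.000573. The part of these lists in the values below was not tested. Microglia express many lysosomal genes strongly, and what share of the values below came from microglial RNA was not tested.

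Values below are means over cells of log2(UMI count / size factor + 1), called log2 levels. The sequencing reads the 3′ end of each transcript, so a captured transcript counts as about 1 UMI whatever its length. Levels of different genes are set side by side as UMI counts. How far capture differs between genes was not tested. Together the 40 genes held 842349 of 142855432 UMIs, or 0.590%. The membrane proteins took 39.1% of these UMIs, the cathepsins and other proteases 20.3%, the proton pump 17.4%, the activators 9.98%, the glycan and lipid enzymes 8.46%, and the sorting receptor Sort1 with the transcription factor Tfeb 4.82%. The list was dominated by few genes: the 5 most abundant held 53.2% of its UMIs.

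Among membrane proteins, Lamp1, a glycoprotein of the lysosomal membrane (chromosome 8 of GRCm38, 13159161 to 13175338), alone held 22.3% of the UMIs of the list and had a UMI in 100% of cells after rounding. Its log2 level over the 8 libraries ran from 2.97 through a median of 3.44 to 3.58. Cd63, a tetraspanin of late endosomes and lysosomes (chromosome 10, 128900989 to 128912822), ranged most of the 40 genes between libraries, from 1.67 through a median of 2.0 to 2.52. Lamp2, which lines the membrane and serves autophagy, had a mean log2 level of 1.39 over libraries, Laptm4a of 0.96, Laptm4b of 0.62 and the calcium channel gene Mcoln1 of 0.17. Of the proton pump, the proteolipid subunit gene Atp6v0c was the most abundant at 2.29, followed by Atp6ap1 at 1.37, Atp6v1a at 0.98 and Atp6v0d1 at 0.76.

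Proteases ran from well detected to nearly absent. Ctsb, encoding cathepsin B, had a mean log2 level of 1.55, and Ctsl, Lgmn and Ctsd followed at 1.21, 1.19 and 1.07. Ctsa stood at 0.94, and Tpp1, Ctsf and Ctsz lay between 0.50 and 0.54. Ctsh and Ctsc were nearly undetected, with a UMI in 0.739% and 0.485% of cells. Glycan and lipid enzymes were low throughout. Ppt1, which removes fatty acids from proteins, led them at 0.68, and Lipa, the lysosomal acid lipase, and Smpd1, acid sphingomyelinase, stood at 0.51 and 0.47. The leukodystrophy genes Galc and Arsa stood at 0.27 and 0.16, with a UMI in 31.3% and 18.8% of cells. Glb1, encoding beta-galactosidase, was lowest with a UMI in 3.16% of cells. The matrix read here holds oligodendrocytes only, and how much of the lowest shares is free RNA was not tested. Psap, the precursor of the saposins that present lipids to these enzymes, had a mean of 2.21, against 0.41 for the ganglioside activator gene Gm2a and 0.32 for Grn. Sort1, encoding the sorting receptor sortilin (chromosome 3, 108284082 to 108361511), had a mean of 1.38 and Tfeb, a transcription factor that drives lysosomal genes, of 0.36.

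**Figure D1:**
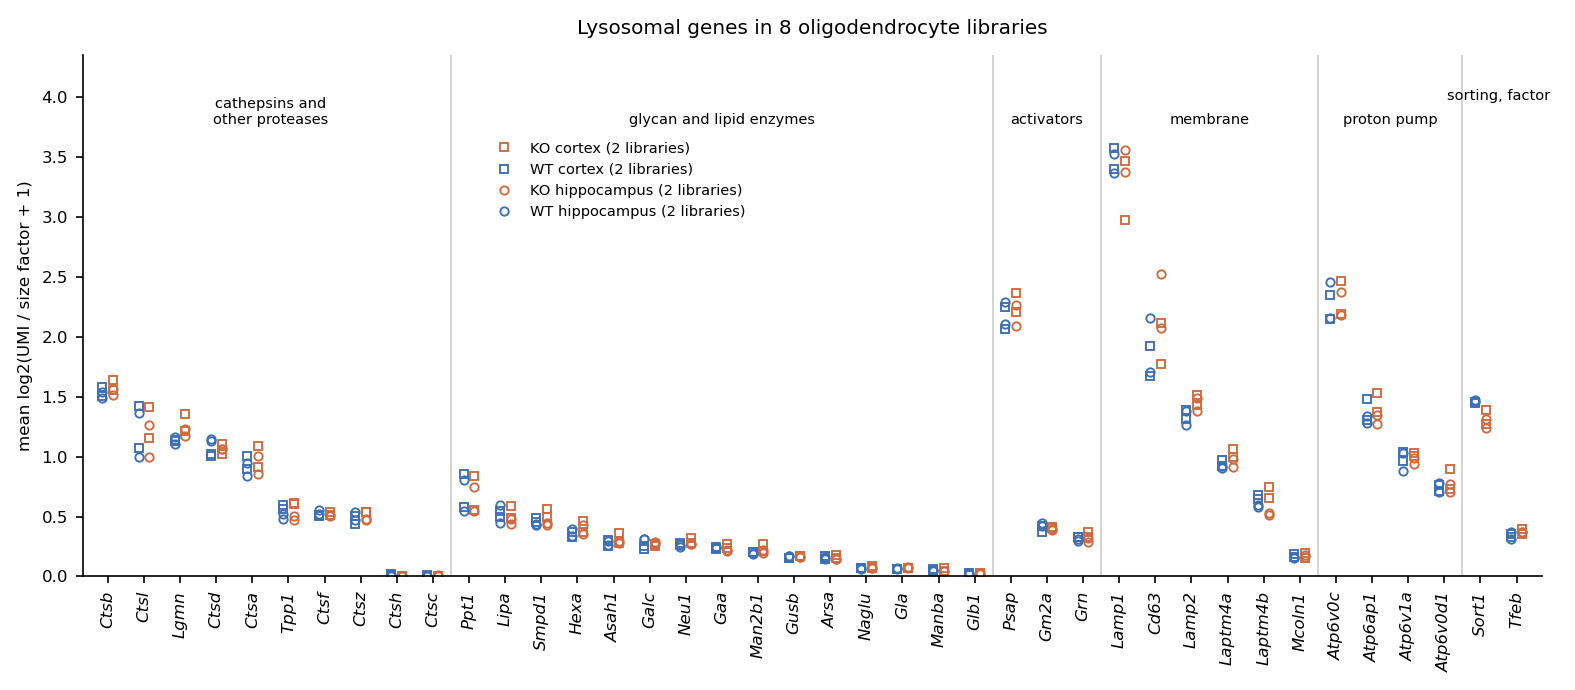
Mean log2 level of each of the 40 genes in each of the 8 libraries, grouped by role and ordered by level within a role; blue is WT, orange is KO, circles are hippocampus and squares are cortex. Lamp1 is the highest gene in every library, and its lowest square, at 2.97, is the cortex of KO mouse 3.

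Some of these genes share transcribed ground with others. Lamp1 overlaps Grtp1 on the opposite strand, and Sort1 overlaps the gene models Gm43099 on its own strand and Gm12523 on the other. Cd63 and Atp6v0c have pseudogene copies (Cd63-ps; Atp6v0c-ps1 and Atp6v0c-ps2). Ctsl, Ctsd, Manba and Glb1 overlap a gene on their own strand. The sources used here do not say how the authors' counting split such reads, so the values of these genes are uncertain to that extent.

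Many lysosomal genes are known to carry, near their start, a short palindromic element read by TFEB and its relatives. Promoter windows were therefore searched for every palindrome of 6 and of 8 letters, which reads the same on either strand. RefSeq windows of GRCm38.p6, 250 bases before to 50 after a start, were found for 35 of the 40 genes and not for Asah1, Ctsb, Ctsh, Laptm4b and Sort1. Of the 256 palindromes of 8 letters, the one in most of these genes was TCACGTGA, in 6 of the 35 (17.1%) and in 304 of all 27025 genes (1.12%). By window that was 14.3% of 42 against 0.974% of 32851, and the next palindrome was in 3 of the 35 genes. Of the 64 palindromes of 6 letters the leader was CACGTG, which lies within those 8 letters, in 14 of the 35 genes (40.0%) and in 8.09% of all. Both were picked as the most frequent in these same windows, so their shares are a description and not a test. The copies of the 8 letters wholly ahead of the RefSeq start of their window, 6 from 5 genes, are shown because they are a sequence feature that genes of different roles have in common, with the 8 letters in capitals. Ctsa and Ctsd are proteases, Atp6v1a belongs to the pump, Gla cleaves glycolipids and Mcoln1 is the channel. The 2 copies of Gla lie in 1 window. By the gene coordinates of the annotation used here, the copies of the other 4 genes lie inside the gene, past its outermost start. Ctsa has another copy that reaches its RefSeq start or past it, and so has the remaining gene, Atp6v0d1, its only one. A match of letters says nothing of binding.

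Atp6v1a, chr16:44139375-44139400, minus strand: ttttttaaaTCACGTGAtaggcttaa
Ctsa, chr2:164833751-164833772, plus strand: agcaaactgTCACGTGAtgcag
Ctsd, chr7:142387910-142387935, minus strand: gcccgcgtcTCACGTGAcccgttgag
Gla, chrX:134601217-134601242, minus strand: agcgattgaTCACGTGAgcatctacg
Gla, chrX:134601184-134601209, minus strand: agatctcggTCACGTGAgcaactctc
Mcoln1, chr8:3500464-3500489, plus strand: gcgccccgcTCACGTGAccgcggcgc

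Between KO and WT mice, over all oligodendrocytes, no lysosomal gene passed the test. KO was above WT in all 4 batches for 12 of the 37 members tested (background over all genes 13.4%) and below in all 4 for Sort1 (background 9.9%). Sort1 was below and Lgmn above WT in every KO library, and Cd63, Lamp2, Ctsb and Hexa were above WT in each batch, the last 2 only with Oligo1 cells included. The largest mean difference of log2 levels was 0.26, for Cd63.

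Sort1 had log2 levels of 1.46 and 1.47 in the WT hippocampus of mice 1 and 4 and 1.46 and 1.45 in their cortex. In KO mice it had 1.32 and 1.24 in the hippocampus and 1.39 and 1.27 in the cortex of mice 3 and 6. The 4 KO libraries all lay below the 4 WT libraries, which held for 1.35% of the 9257 genes tested and, of the 37 members tested, for Sort1 alone. The difference of log2 levels between KO and WT mice was -0.15 (standard error 0.041, n = 2 mice per genotype; limma adjusted p = 1.00), and it was negative in all 4 batches, from -0.23 to -0.064.

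Lgmn encodes legumain, a protease that cuts after asparagine (chromosome 12, 102394084 to 102439813). It had log2 levels of 1.10 and 1.17 in the WT hippocampus and 1.13 and 1.14 in the WT cortex, against 1.17 and 1.23 in the KO hippocampus and 1.21 and 1.36 in the KO cortex, mice in the same order. The 4 KO libraries all lay above the 4 WT libraries, which held for 2.78% of genes and, among members, for Lgmn alone. Its difference was 0.11 (standard error 0.043; limma adjusted p = 1.00).

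Cd63 varied more between mice of 1 genotype than between genotypes. Its log2 level was 2.16 and 1.70 in the WT hippocampus of mice 1 and 4, 1.93 and 1.67 in the WT cortex, 2.52 and 2.07 in the KO hippocampus of mice 3 and 6, and 2.12 and 1.78 in the KO cortex. Ranges of the genotypes overlapped, with both mice of the older pair on the high side. Within batches the KO library was above the WT library each time, by 0.37 in both hippocampus batches and by 0.19 and 0.10 in the cortex of mice 3 and 6. The mean difference was 0.26 (standard error 0.21; limma adjusted p = 1.00).

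Lamp2 showed the most even differences, with KO above WT by 0.11, 0.12, 0.11 and 0.12 in batches 3 to 6 and a mean difference of 0.11 (standard error 0.054; limma adjusted p = 1.00). Lamp1 was the reverse case, in which 1 library set the value. Its log2 level was 3.53 and 3.37 in the WT hippocampus, 3.58 and 3.40 in the WT cortex, 3.56 and 3.38 in the KO hippocampus and 2.97 and 3.47 in the KO cortex. The difference of -0.12 (standard error 0.089) became 0.023 without the cortex library of KO mouse 3.

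By role, all differences were small, and none passed the test. Of the membrane proteins, Laptm4a differed by 0.059 and Laptm4b by -0.015, or by 0.037 and -0.070 without the cortex library of KO mouse 3. The pump genes lay between Atp6v1a at 0.012 and Atp6v0d1 at 0.036, with Atp6v0c at 0.026, and without that library between Atp6ap1 at -0.016 and Atp6v0d1 at 0.0056. Atp6v0d1 was at 0.13 in batch 4, which holds that library, and between -0.0084 and 0.023 in the other batches. Atp6ap1 was highest in batch 6, at 0.066, against 0.053 in batch 4. In values without that library KO mouse 3 stands for hippocampus alone, so tissue enters them too. Of the activators, Psap differed by 0.053 (0.023 without it) and Gm2a by -0.015, and of the glycan and lipid enzymes Hexa, a gene of ganglioside breakdown, differed by 0.044, Ppt1 by -0.024 (-0.047) and Lipa by -0.027. Ctsb differed by 0.040 (0.022) and Tfeb by 0.031.

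Over all oligodendrocytes limma called 0 of the 37 members tested, with 1 member, Sort1, at an unadjusted p under 0.05. It called 0 of 9257 genes (0%), with 209 at an unadjusted p under 0.05; edgeR called 8 genes and 0 members. Each batch pairs mice of the same age, and with that pair as a block limma also called 0 genes and 0 members, with 8 members and 970 genes at an unadjusted p under 0.05. In the sets of clusters below the same block gave 0 calls, with 4 to 7 members and 569 to 692 genes at such a p. Of the members 25 were higher and 12 lower in KO mice, with a median difference of 0.012, against 53.9% of all genes higher and a median of 0.0013. Without the cortex library of KO mouse 3, 21 were higher and 16 lower, with a median of 0.0041, against 45.2% of all genes higher. The 12 members above WT in all 4 batches were Asah1, Cd63, Ctsa, Ctsb, Gla, Hexa, Lamp2, Laptm4a, Lgmn, Man2b1, Naglu and Neu1. With 2 mice per genotype, an exact two-sided permutation test cannot give a p under 0.333. The microglial genes C1qa and P2ry12 were lower in KO in every batch, as given above, and the part of microglial RNA in these differences was not tested.

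**Figure D2:**
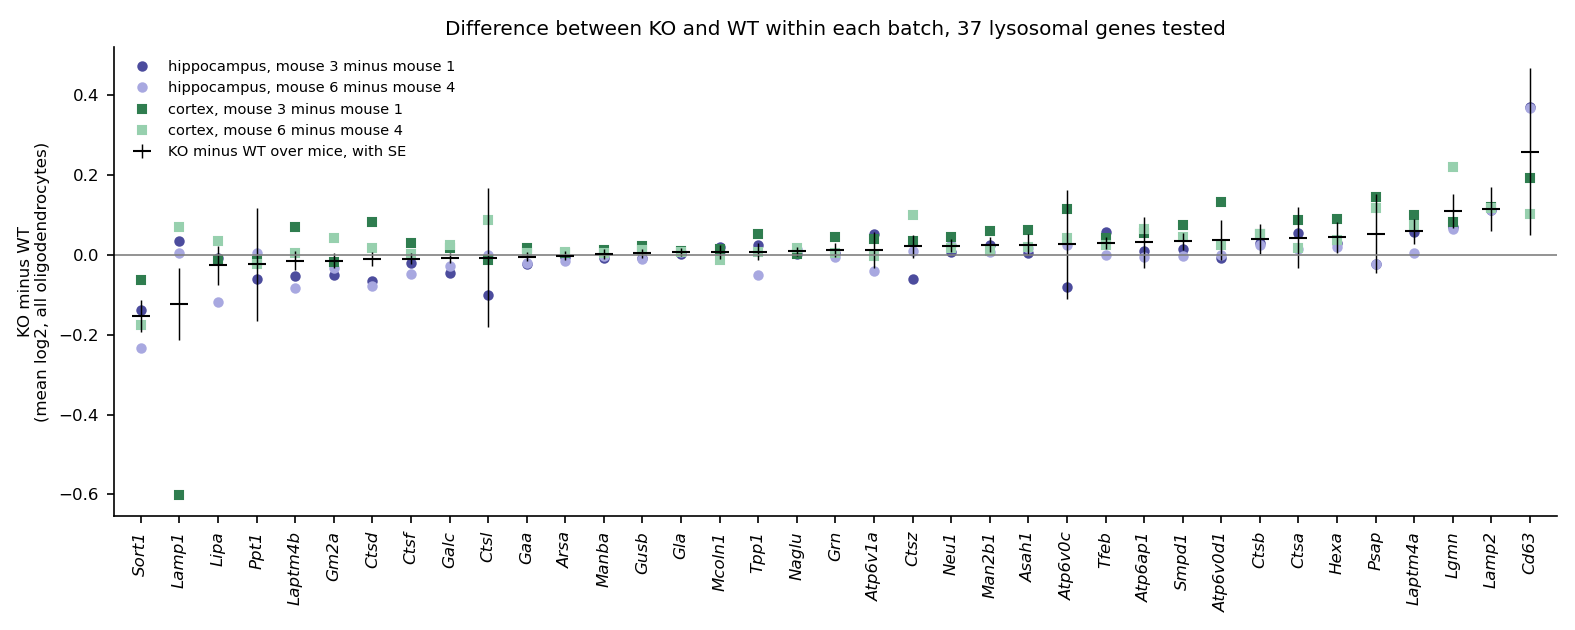
Difference of log2 levels between the KO and the WT library of each batch (coloured points) for the 37 genes tested, with the difference between genotypes over mice and its standard error (black, n = 2 mice per genotype). Sort1 is below 0 in all 4 batches, Cd63 and Lamp2 are above 0 in all 4, and the isolated square of Lamp1 at -0.60 is the batch with the cortex of KO mouse 3.

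Oligo1 is one of 4 deposited clusters of oligodendrocytes and holds 1552 KO cells and 6 WT cells, so the genotypes were also compared over the clusters that both hold. Over Oligo2 to Oligo4, Cd63 differed by 0.11 (standard error 0.20), less than over all cells, and Lgmn by 0.090, Lamp2 by 0.075 and Sort1 by -0.10. Ctsb and Hexa, above WT in each batch over all cells, were so in only 2 of the 4 without Oligo1, at 0.0030 and 0.015. With the cortex library of KO mouse 3 also left out, Ctsb was at -0.026 and Hexa at 0.0013. Laptm4a and Atp6v0c stood at 0.051 and 0.048, and Ctsd, Ppt1 and Lipa at -0.032, -0.031 and -0.018. Lamp1 differed by -0.15, and by -0.012 without the cortex library of KO mouse 3. Leaving that library out also took Laptm4a to 0.024, Atp6v0c to 0.029, Ppt1 to -0.057, Lipa to -0.029 and Cd63 to 0.18. Then 17 of 37 members were higher in KO mice (42.3% of all genes) in place of 28 (52.8%). KO mouse 3 stands there for hippocampus alone, so tissue enters these values. No member passed the test: limma called 0 of 37 members and 0 of 9232 genes (0%), with 0 members and 133 genes at an unadjusted p under 0.05, and edgeR called 3 genes and 0 members.

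Within Oligo2, Cd63 differed by 0.18, with mouse values of 1.51 and 1.30 in KO mice 3 and 6 and 1.32 and 1.13 in WT mice 1 and 4. Sort1 differed by -0.11 (standard error 0.020; limma adjusted p = 1.00), with KO mice at 1.41 and 1.37 and WT mice at 1.49 and 1.50. Atp6v0c, Psap, Lgmn and Atp6v0d1 lay between 0.051 and 0.069, and Lipa, Ppt1 and Tpp1 between -0.059 and -0.028. Lamp1 differed by -0.18, or -0.041 without the cortex library of KO mouse 3. Psap was then at 0.016, Atp6v0d1 at 0.023, Atp6v0c at 0.045 and Tpp1 at -0.060. In this cluster limma called 0 of 37 members and 0 of 9292 genes (0%), with 1 member and 139 genes at an unadjusted p under 0.05, and edgeR called 4 genes and 0 members.

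Oligo3, the cluster with the most cells, gave the smallest difference for Sort1. There it differed by -0.084, and the batches of the older pair were near 0 (0.016 and -0.0097) while those of the younger pair were at -0.16 and -0.18. Cd63 differed by 0.11, Lgmn by 0.081, Lamp2 by 0.072, Psap by 0.063 and Atp6v0c by 0.058. On the lower side stood Ctsd, an aspartic protease gene, at -0.046, Ppt1 at -0.021 and Ctsb at -0.0065. Lamp1 differed by -0.16, or -0.025 without the cortex library of KO mouse 3. Psap was then at 0.025, Atp6v0c at 0.039, Ppt1 at -0.051 and Ctsb at -0.050. In Oligo3 limma called 0 of 37 members and 0 of 9135 genes (0%), with 0 members and 103 genes at an unadjusted p under 0.05, and edgeR called 3 genes and 0 members.

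Oligo4 showed the largest differences of Cd63 and Lamp2. It held few cells in the cortex, 38 and 97 in WT mice 1 and 4 and 47 and 72 in KO mice 3 and 6. Over all genes the median absolute difference was 0.021 in Oligo4, against 0.014 in Oligo2 and 0.010 in Oligo3. Cd63 was at 2.57 and 2.19 in KO mice 3 and 6 and at 2.10 and 1.88 in WT mice 1 and 4, a difference of 0.39 (standard error 0.16). Lamp2 was at 1.38 and 1.35 in KO mice and 1.21 and 1.16 in WT mice, a difference of 0.18 (standard error 0.030; limma adjusted p = 1.00) that was positive in all 4 batches. Tfeb differed by 0.095, Asah1, the gene of acid ceramidase, by 0.085, and Sort1 by -0.11. Laptm4a was at 0.087, and Ppt1, Tpp1 and Gm2a were at -0.071, -0.051 and -0.043. Lamp1 differed by -0.14, or 0.0054 without the cortex library of KO mouse 3, which also took Asah1 to 0.054. In Oligo4 limma called 0 of 37 members and 0 of 9381 genes (0%), with 4 members and 282 genes at an unadjusted p under 0.05, and edgeR called 25 genes and 0 members. Whether the differences in Oligo4 were larger than those in other clusters was not tested.

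Oligo1 was compared with the other cells of the same KO mice. The clusters were made from these expression values, so the tests in this contrast describe it and are no independent evidence. Oligo1 cells held more Cd63, Lamp2, Lamp1, Ctsb and Hexa RNA and less Sort1, Laptm4b, Gm2a, Atp6v0c and Ctsf RNA than the other KO cells. The list did not move 1 way: membrane proteins and proteases stood on both sides, while the sorting receptor, the ganglioside activator and the pump's proteolipid subunit were on the lower side in both mice.

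Cd63 stood out by size. Mouse 3 had a log2 level of 3.01 in Oligo1 and of 2.20 outside it, and mouse 6 of 2.62 and 1.82, a difference of 0.80 (standard error 0.21 without a block for mouse). Within each KO library the difference was 0.77 and 0.72 in the hippocampus and 0.74 and 0.91 in the cortex of mice 3 and 6. Both mice and both tissues thus showed a difference of similar size.

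Sort1 was the lowest, at 1.13 in Oligo1 and 1.41 in the other cells of mouse 3, and 1.05 and 1.30 in those of mouse 6, a difference of -0.27 that was negative in all 4 libraries. Lamp2 differed by 0.19, from 0.12 to 0.31 within libraries. Lamp1 differed by 0.18 with cells pooled over the tissues of a mouse, but by 0.13 when libraries were compared within themselves, and Ctsb by 0.18, from 0.11 to 0.30. Hexa, which cuts ganglioside GM2, was at 0.51 in Oligo1 and 0.37 in the other cells, while Gm2a, the cofactor of that step, was at 0.31 and 0.43. Gm2a was lower in 3 of the 4 libraries and 0.0045 higher in the cortex of mouse 6. Laptm4b differed by -0.13 and Atp6v0c by -0.11, both negative in the 4 libraries, and Ctsf by -0.065. Ctsd had a difference of 0.10, Tfeb of 0.044 and Psap of 0.016.

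Without a block, limma called 0 of 37 members and 2 of 9259 genes (0.0216%), with 10 members and 855 genes at an unadjusted p under 0.05; edgeR called 119 genes and 0 members. The 2 genes, C4b and Serpina3n, lie outside the list and were chosen for naming after their values were seen. Oligo1 and other cells of 1 mouse come from the same animal, and with mouse as a block limma called 1192 genes and 13 members. Of these, 8 members rose (Cd63, Lamp2, Lamp1, Ctsb, Hexa, Ctsa, Lgmn and Ctsz; background 6.34% of genes) and 5 fell (Sort1, Laptm4b, Gm2a, Atp6v0c and Ctsf; background 6.53%). The adjusted p with this block was 0.000635 for Cd63, 0.0036 for Sort1 and 0.0287 for Lamp1. With library as a block, where the 4 libraries are 2 tissues of only 2 mice and add no animals, 10 members rose (background 7.43%) and 4 fell (background 6.64%), and 11 members were called in both of these fits (background 10.4%). Gm2a (limma adjusted p = 0.0726) and Ctsf were not called with the library block. Weighting both libraries of a mouse equally, an alternative chosen after seeing the data, called 12 members. Of these, 10 rose (background 5.93%) and 2, Sort1 and Laptm4b, fell (background 5.44%). The calls of Gm2a, Atp6v0c and Ctsf thus depend on the fit. Some members called were alike in 1 other KO cluster. As means over KO libraries, Lgmn was at 1.33 in Oligo1 and 1.46 in Oligo4, and Ctsz at 0.56 and at 0.59 in Oligo2. Ctsa (1.09 and 1.10), Ctsb (1.73 and 1.69) and Gm2a (0.313 and 0.318) were near their Oligo4 means, and Lamp1 (3.45 and 3.42) near that of Oligo2. Cd63, Lamp2 and Hexa stood highest in Oligo1.

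In direction alone, 13 members were above the other cells in all 4 KO libraries (background 19.7%) and 6 were below in all 4 (background 15.8%). The median difference over the 37 members was 0.0069, against 0.0010 over all genes. These medians were 0.0135 and 0.0022 without the cortex library of KO mouse 3. Depth was alike in the groups: cells of the hippocampus of mouse 3 had a median of 9958 UMIs in Oligo1 and 9467 outside it, 14204 and 13686 in its cortex, 11135.5 and 10710.5 in the hippocampus of mouse 6, and 13730 and 13146 in its cortex. Of the 15 microglial genes, 2 to 11 had a UMI in the Oligo1 cells of a KO library and 8 to 13 in its other cells, which were more numerous. The 6 astrocyte genes summed to less in Oligo1 in each library. The sum was 0.925 against 1.67 and 1.53 against 2.21 in the hippocampus of mice 3 and 6, and 0.995 against 1.83 and 1.19 against 1.79 in their cortex. Slc1a2 was the most abundant of them in the other cells of every library, and none of the 6 was at 0. In Oligo1 Slc1a2 led in the hippocampus of mouse 6 and Slc1a3 in the remaining KO libraries. Endothelial and red blood cell genes went both ways: the former summed to 0.126 against 0.159 in the hippocampus and 0.369 against 0.108 in the cortex of mouse 3, and were higher in Oligo1 in the hippocampus and lower in the cortex of mouse 6. The latter summed to 2.68 against 8.82 and 2.49 against 1.52 in the hippocampus of mice 3 and 6 and to 0.374 against 1.71 and 0.611 against 0.660 in their cortex. The 6 genes of macrophages along blood vessels went both ways too, with 6 seen in Oligo1 and 2 in the other cells of the hippocampus of mouse 3, and 0 and 6 in that of mouse 6. The part of these 4 lists in the contrast was not tested.

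**Figure D3:**
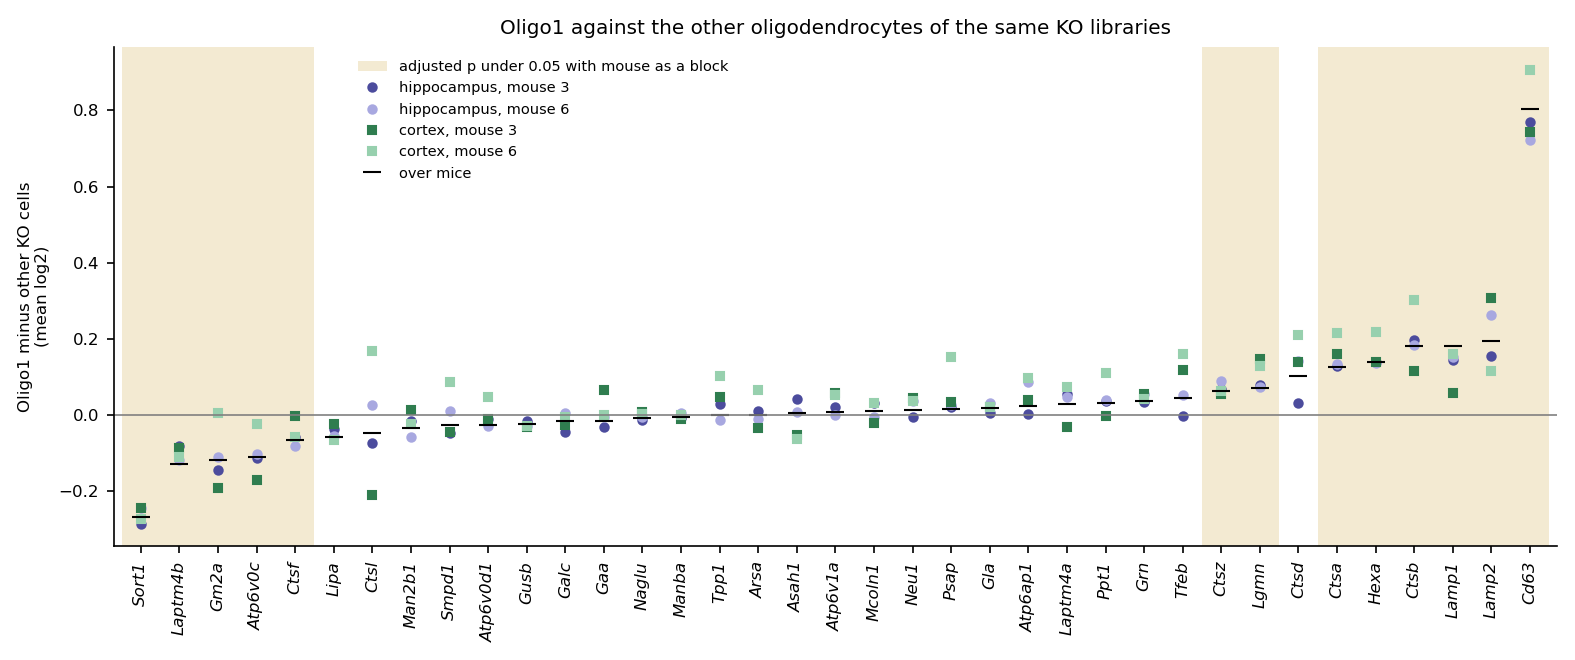
Difference of log2 levels between Oligo1 cells and the other cells of each KO library (coloured points) and over mice (black) for the 37 genes tested; shaded genes had an adjusted p under 0.05 with mouse as a block. Cd63 stands at 0.72 to 0.91 in the 4 libraries, and Sort1 lies below 0 in all 4.

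Across the clusters that both genotypes hold, some genes, such as Cd63, Psap and Ctsb, differed more than they did between genotypes. Others, such as Hexa and Neu1, did not. Oligo2 had the lowest Cd63: its log2 level in WT libraries averaged 1.22 in Oligo2, 2.02 in Oligo3 and 1.99 in Oligo4, and in KO libraries 1.41, 2.13 and 2.38, with 2.76 in Oligo1. Psap and Ctsb were also lowest in Oligo2, where the WT means were 1.97 and 1.39, against 2.23 and 1.56 in Oligo3. Lamp1 had its highest WT mean in Oligo2, at 3.60, against 3.43 in Oligo3 and 3.50 in Oligo4. These clusters were drawn from the same values, so their contrasts are given without a test.

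Oligo4 had less Sort1 and more Lgmn. In WT libraries Sort1 averaged 1.50 in Oligo2, 1.47 in Oligo3 and 1.19 in Oligo4, and in KO libraries 1.39, 1.39 and 1.09, with 1.09 in Oligo1. The ranges over libraries of Oligo1 (1.03 to 1.18) and KO Oligo4 (1.04 to 1.13) overlapped. Lgmn averaged 1.21 in Oligo2, 1.09 in Oligo3 and 1.42 in Oligo4 of WT libraries, and Ctsz, a carboxypeptidase gene, went the other way with 0.55, 0.49 and 0.32.

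Counted over the 8 libraries, 6 members were above in Oligo2 against Oligo3 in all 8 (Ctsz, Lgmn, Arsa, Smpd1, Lamp1 and Tfeb; background 15.8%) and 9 were below (background 9.96%). Against Oligo4, 8 members were above in Oligo2 (background 13.1%) and 9 below (background 11.5%). Oligo4 was above Oligo3 in all 8 for 7 members (Ctsa, Ctsb, Ctsf, Lgmn, Gusb, Lamp1 and Atp6v1a; background 9.36%) and below for Ctsz, Gm2a and Sort1 (background 8.42%).

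**Figure D4:**
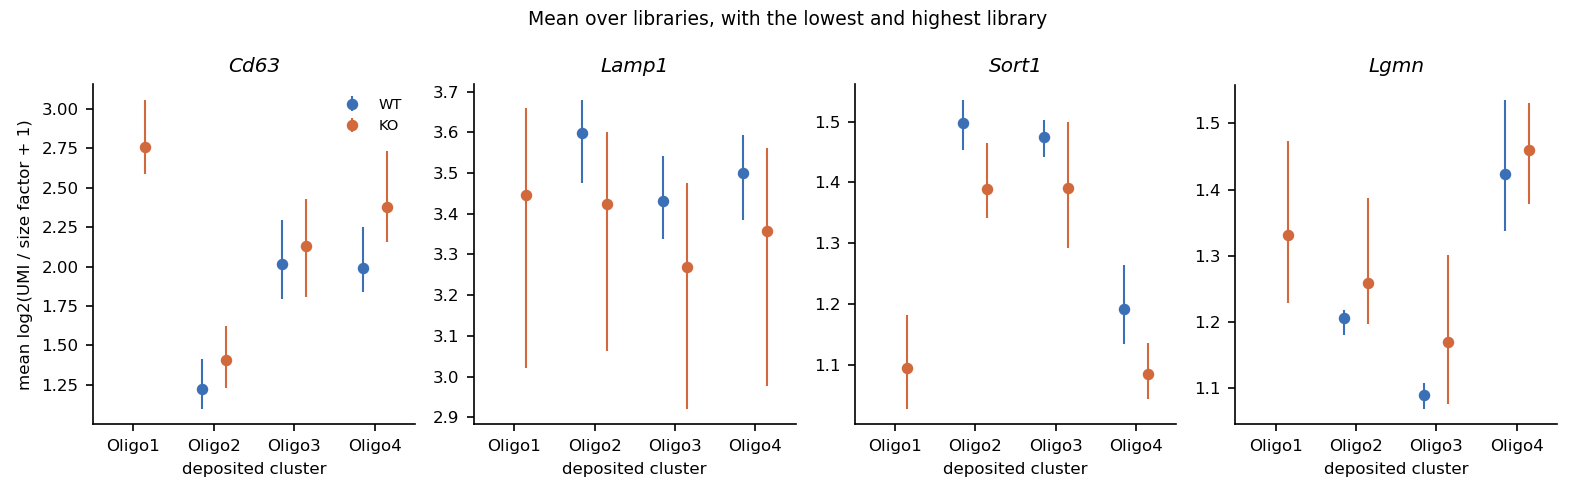
Log2 levels of 4 genes in each deposited cluster: points are means over 4 libraries of a genotype and bars run from the lowest to the highest library, with vertical axes that do not start at 0. Cd63 is lowest in Oligo2 and highest in Oligo1, Sort1 is low in Oligo1 and Oligo4, and the long lower bars of Lamp1 in KO libraries end at the cortex of mouse 3.

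Tissues were compared over the 8 libraries with genotype in the model. Cd63 was above in the hippocampus of every mouse, by 0.23, 0.41, 0.030 and 0.30 in mice 1, 3, 4 and 6, with a mean difference of 0.24 (standard error 0.16, or 0.063 with mouse as a block). Most other genes were higher in the cortex: Laptm4b differed by -0.13, Atp6ap1 by -0.11, Ctsl, a cysteine protease gene, by -0.11, and Tpp1, a tripeptidyl peptidase gene, by -0.098. Smpd1 followed at -0.065, while Ctsd, Galc and Gm2a stood at 0.064, 0.043 and 0.011 on the side of the hippocampus. Lamp1 differed by 0.10, and by -0.025 without the cortex library of KO mouse 3, where Ctsl was at -0.052 and Atp6ap1 at -0.077. No member passed: limma called 0 of 37 members and 0 of 9257 genes (0%), with 5 members and 490 genes at an unadjusted p under 0.05, and edgeR called 0 genes and 0 members. With mouse as a block limma called 0 members too. Hippocampus was above cortex in all 4 mice for Cd63 alone (background 6.78%) and below in all 4 for 16 members (background 18.6%), such as Ctsb, Lamp2, Ppt1 and Smpd1. The median difference was -0.020 over members, of which 10 were higher in hippocampus, and -0.0051 over all genes, of which 35.6% were higher. Without the cortex library of KO mouse 3, 14 members and 38.5% of genes were higher, with medians of -0.0086 and -0.0043. Each batch holds 1 tissue, so tissue and batch cannot be told apart.

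A test of the difference between genotypes in their tissue contrast gave its largest negative value for Psap, the saposin precursor. Hippocampus minus cortex for Psap was 0.045 and 0.044 in WT mice 1 and 4 and -0.12 and -0.097 in KO mice 3 and 6. The interaction was -0.15 (standard error 0.015; limma adjusted p = 0.792). Ctsz behaved alike, with 0.031 and 0.032 in WT mice and -0.065 and -0.057 in KO mice, an interaction of -0.092. Ctsd, Laptm4b and Atp6v0c had interactions of -0.12, -0.11 and -0.11. Hippocampus minus cortex in KO mice 3 and 6 was -0.038 and 0.044 for Ctsd, -0.22 and -0.14 for Laptm4b and -0.087 and -0.0081 for Atp6v0c. In WT mice 1 and 4 it was 0.11 and 0.14, -0.099 and -0.054, and 0.11 and 0.0090. Every interaction uses the cortex library of KO mouse 3. Lamp1 had the largest positive interaction, 0.29 (standard error 0.24), which rests on the cortex library of KO mouse 3, and Cd63 had 0.22. The next highest were near 0: Mcoln1 at 0.013, Naglu at -0.00091 and Gla at -0.0038. In this test limma called 0 of 37 members and 0 of 9257 genes (0%), with 8 members and 574 genes at an unadjusted p under 0.05, and edgeR called 1 gene and 0 members. All 8 of those members were lower, in a contrast in which 34 of the 37 members were lower and only 33.7% of all genes were higher.

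For most genes, in the list and outside it, the pairs of mice differed by more than the genotypes did. Mice 1 and 3 had more RNA of several lysosomal genes than mice 4 and 6 in both tissues. Ppt1 was at 0.75 to 0.85 in the 4 libraries of mice 1 and 3 and at 0.54 to 0.58 in the other 4. Ctsl was at 1.26 to 1.42 against 1.00 to 1.16, and Atp6v0c at 2.35 to 2.46 against 2.15 to 2.19. Neither pair overlapped the other in these genes. In all, 7 members were above in all 4 libraries of mice 1 and 3 (Asah1, Atp6v0c, Atp6v0d1, Ctsa, Ctsl, Hexa and Ppt1; background 14.2%), and Psap alone was below, at 2.07 to 2.21 against 2.25 to 2.37 (background 19.4%). For 23 of the 37 members the difference between these pairs was larger in size than that between genotypes. That is a smaller share than the 74.7% of all genes. Age, batch and animal differ together between the pairs and cannot be told apart.

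As a mean over all 40 genes, the log2 level of a library lay between 0.721 and 0.797. It was 0.759 and 0.723 in the WT hippocampus of mice 1 and 4, 0.767 and 0.721 in the WT cortex, 0.764 and 0.721 in the KO hippocampus of mice 3 and 6, and 0.797 and 0.750 in the KO cortex. Mouse means were 0.763 and 0.722 in WT and 0.780 and 0.736 in KO mice. The genotypes differed by 0.016, less than the standard deviation between mice of 1 genotype (0.029 in WT and 0.032 in KO, n = 2 each). Within batches KO minus WT was 0.0052 and -0.0015 in the hippocampus and 0.029 and 0.030 in the cortex, and without the cortex library of KO mouse 3 the difference over mice was 0.0076.

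The mean was lower in Oligo2 than in Oligo3 and Oligo4 of every library, at 0.687 to 0.763 in Oligo2 against 0.716 to 0.805 in Oligo3. With Cd63 left out this failed in the WT hippocampus of mouse 4, at 0.6981 in Oligo2, 0.6977 in Oligo3 and 0.6945 in Oligo4. Oligo2 stayed the lowest in every other library. Oligo1 had the highest mean of the 4 clusters in each KO library, at 0.781 and 0.749 in the hippocampus and 0.821 and 0.815 in the cortex of mice 3 and 6. Within libraries it exceeded the other KO cells by 0.025 and 0.036 in the hippocampus and by 0.029 and 0.072 in the cortex. Pooled over the tissues of a mouse the difference averaged 0.028. Cd63 made up most of this pooled value, which was 0.0082 over the other 39 genes. Within libraries 0.0057 and 0.018 were left in the hippocampus of mice 3 and 6 and 0.010 and 0.051 in their cortex, so in the cortex of mouse 6 most of the difference lay outside Cd63. No p is given for a mean over members, because the list was chosen with results known.

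**Figure D5:**
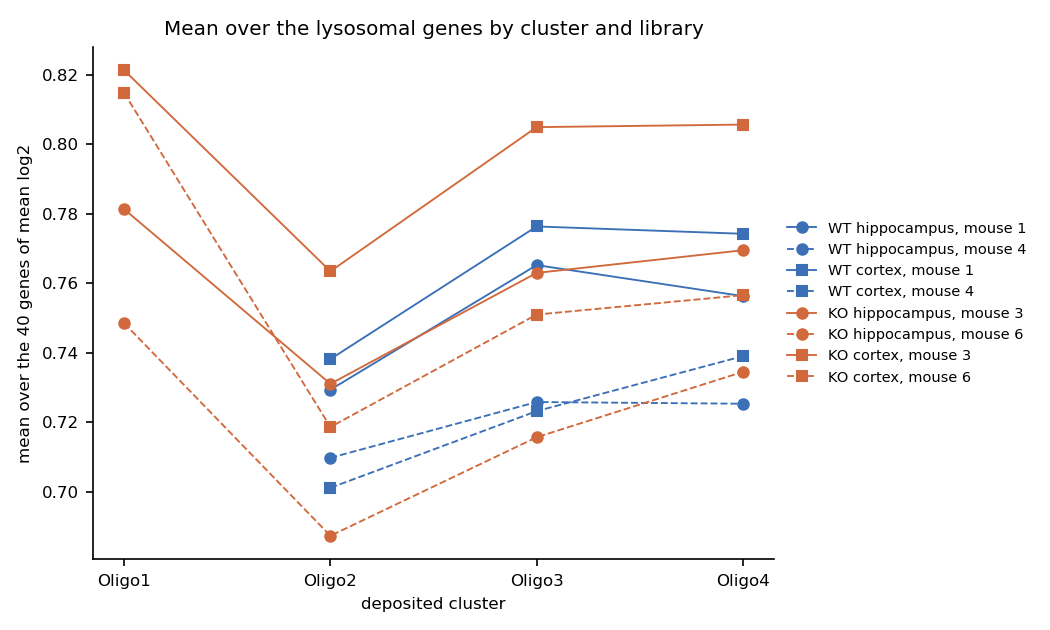
Mean log2 level over the 40 genes in each deposited cluster of each library; lines join the clusters of 1 library, solid for mice 1 and 3 and dashed for mice 4 and 6, on an axis that does not start at 0. Oligo2 is the lowest cluster of every library, from 0.687 to 0.763, and Oligo1 the highest of each KO library. With Cd63 left out, which is not drawn, Oligo2 is not the lowest in the WT hippocampus of mouse 4.

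Another 96 genes of the lysosome and its supply were read from the same fits, and 89 were expressed highly enough to be tested. Between KO and WT mice over all oligodendrocytes, limma called 0 of the 89, with 3 at an unadjusted p under 0.05, and edgeR called 0; 51 were higher and 38 lower, with a median difference of 0.0018. Without the cortex library of KO mouse 3 the balance turned, with 33 higher and 56 lower. That of all genes turned too, from 53.9% higher to 45.2%. KO mouse 3 is then hippocampus alone, and 69 of the 89 were lower in hippocampus than in cortex. Tissue therefore enters these counts, and its part was not tested. Atp6v0e, a pump subunit gene, differed by 0.10 and Scarb2, which carries beta-glucocerebrosidase to lysosomes, by 0.087, both positive in all 4 batches. Sorl1, a sorting receptor related to Sort1, differed by -0.099 and was negative in all 4. Of 12 further pump subunits tested, 10 were higher and 2 lower, with a median of 0.025, or 8 and 4 without that library. It was the most uneven of 6 lists: the others had 9 higher and 8 lower (enzymes), 7 and 8 (membrane), 8 and 3 (sorting), 9 and 7 (nutrient sensing) and 8 and 10 (autophagy). Within Oligo4 the pump list had 6 higher and 7 lower. Within the clusters the same genes recurred at the ends: Sorl1 was lowest over Oligo2 to Oligo4 (-0.10) and within Oligo2 (-0.11) and Oligo3 (-0.11). Atp6v0e was highest over Oligo2 to Oligo4 at 0.073 and stood at 0.097 within Oligo2, next to Naaa, an acid amidase gene, at 0.10. Atp6v0b, another pump subunit gene, was at 0.067 over Oligo2 to Oligo4 and at 0.083 within Oligo3, where Gabarap was at 0.064, and Atp6ap2 was at -0.093 within Oligo2. Oligo4 had other genes at its ends, with Scarb2 at 0.14 and Lamtor4, of the nutrient sensor, at 0.12, against Lmbrd1 at -0.12 and Atp6v1d at -0.091.

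Between tissues, 20 of the 89 were higher in hippocampus and 69 lower (30 and 59 without the cortex library of KO mouse 3), from Ulk2 at 0.056 and Npc1 at 0.026 to Lmbrd1 at -0.085 and Sorl1 at -0.11. Of all genes 35.6% were higher in hippocampus, or 38.5% without that library. Ulk2, an autophagy kinase gene, was on the other side at -0.013 without that library. For the interaction 18 were higher and 71 lower, where 33.7% of all genes were higher, from Ulk2 at 0.12 and Map1lc3a at 0.11 to Gabarapl2 at -0.12 and Atp6ap2 at -0.13. The limma fits without a block and edgeR called none of the 89 in any comparison.

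In Oligo1 against other KO cells, 11 of the 89 were called by limma with mouse as a block, 4 higher and 7 lower, and 0 without it. That block called 12.9% of all genes, so these genes were called about as often as others. Without it 7 of the 89 were at an unadjusted p under 0.05, against 9.23% of all genes. With the block Map1lc3a, whose product coats autophagosomes, rose by 0.34, from 0.28 to 0.37 within libraries, and Atp6v0e by 0.15, Scarb2 by 0.14 and M6pr, a receptor for enzymes tagged with mannose 6-phosphate, by 0.064. Gabarapl1 and Gabarapl2, relatives of Map1lc3a, fell by 0.12 each, the pump subunit genes Atp6v0b and Atp6v1e1 by 0.13 each, and Npc1, Lmbrd1 and Rraga by less than 0.10. Of the 12 further pump subunits 4 were higher and 8 lower. Genes of the pump and of the autophagosome coat thus stood on both sides.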

How the data were processed

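Single cells sorted from hippocampus and cortex of 4 mice were sequenced as 8 libraries. The authors ran Cell Ranger 5.0.0 on mm10, kept mature oligodendrocytes with at least 5000 UMIs and at most 10% mitochondrial UMIs, and kept genes seen in at least 2 cells. The paper's methods name scatter gates at the sort as the step against doublets. The cells were not screened again for doublets here. The matrix values are log2 as deposited, made by the authors as log2 of the UMI count over a scran size factor plus 1, without batch correction. The deposited cell table gives each cell's UMI count as counted by Cell Ranger, with no scaling. It also gives the percent of UMIs that are mitochondrial, computed by the authors per cell. Of its columns, 24 were not used; they hold labels, quality measures and cluster assignments of other kinds. Whether counting used the strand is not given in the sources used here.

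UMIs were recovered from the matrix: all 42420937 values above 0 were whole within 0.001. Median UMIs per cell ran from 9377 to 13725.5 over libraries, which leaves genes of few UMIs, such as Ctsc with 84 in all cells, with wide counting error. Library means of log2 values were averaged with equal weight over the tissues of a mouse, except that Oligo1 and the other KO cells were averaged over all cells of a mouse. A library entered a cluster with at least 20 cells. Genes seen in 5% of cells or more were tested with limma 3.58.1 and Benjamini-Hochberg adjustment over all genes tested, at a threshold of 0.05. EdgeR 4.0.16 with TMM factors on UMI sums was an alternative. R 4.3.3, Python 3.11.15, numpy 2.4.6, pandas 2.3.3 and matplotlib 3.10.9 were used, and the fits were tested on simulated data.

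Libraries or groups of cells from 1 mouse are paired. The correlation of their deviations over genes was 0.84 for the tissues of WT mice, 0.85 for those of KO mice and 0.90 for Oligo1 with other KO cells, so fits with mouse as a block were run beside the main fits, which have none.

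The members and lists were chosen with earlier results of these data known. All members are accounted for by role, and those named in detail have the 5 highest or 5 lowest differences of a comparison or the 5 largest shares of UMIs, with Tfeb and Laptm4b. Of the other lysosomal genes, those past the threshold or otherwise the 2 highest and 2 lowest per comparison are named. Some items that this rule or the marker lists take in are not reported here. Alternatives varied scale, filter, scaling, test, block, tissue, depth (cells thinned to 5000 UMIs) and libraries. Leaving out the cortex library of KO mouse 3 and weighting the libraries of a mouse equally, and leaving Cd63 out of the mean, were chosen after seeing the data. The 6 WT cells of Oligo1 were too few to compare.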

Additional observations from a re-analysis of the deposited data

Results flagged for a closer look

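Lysosomal genes were searched for single libraries far from the rest: a library stood apart when its gap to the nearest other value, divided by the whole range, passed Dixon's critical value at 95% for 8 libraries or for the 4 of a genotype. Of 114 such groups of values (38 of 8 libraries and 76 of 4), 5 had such a library, and chance alone gives about 1 in 20. All 5 were the cortex library of KO mouse 3 among the 8 libraries. Its log2 level was 2.9733 for Lamp1, the lowest library, and 0.3618 for Asah1, 0.3229 for Neu1, 0.2670 for Man2b1 and 0.8930 for Atp6v0d1, each the highest library. The gap was 0.66 of the range for Lamp1, 0.62 for Atp6v0d1 and 0.58 for the other 3. What sets this library apart was not tested.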

How the results depend on the processing

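Each arm holds 2 mice, so a gene had to differ far beyond the spread of 2 animals to pass. Tissue and batch cannot be told apart, nor can age, batch and animal between the pairs. Where a mouse was left out, the lone mouse of its genotype was assumed to vary like the other group. Of 1251 values of named genes under alternatives, 1151 kept their direction and their side of the threshold, 38 newly passed it, all in Oligo1 against other KO cells, and 62 changed sign. Members past the threshold stayed at 0 between KO and WT under all alternatives, and a block for mouse changed no call between tissues. Causes of the changes below were not tested.

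KO against WT in all oligodendrocytes gave 1 gene past the threshold without a filter and 8 with edgeR. Lamp1 turned to 0.0234 without the cortex library of KO mouse 3. In hippocampus alone Psap was -0.0239, Lamp1 0.0193 and Atp6v0c -0.0269; in cortex alone Lipa was 0.0109 and Laptm4b 0.0375. Leaving out each mouse gave ranges of -0.0389 to 0.1455 for Psap, -0.0769 to 0.0237 for Lipa, -0.1589 to 0.1114 for Ppt1, -0.0424 to 0.0122 for Laptm4b and -0.1004 to 0.1522 for Atp6v0c.

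Over Oligo2 to Oligo4, 1 gene passed without a filter and 3 with edgeR; in cortex alone Ctsd was 0.0294 and Lipa 0.0162. Leave-out ranges were -0.0790 to 0.1744 for Atp6v0c, -0.0726 to 0.2893 for Cd63, -0.1667 to 0.1039 for Ppt1, -0.0689 to 0.0325 for Lipa and -0.0246 to 0.1593 for Atp6v0b. Within Oligo2, edgeR gave 4 genes, and the ranges were -0.0799 to 0.1880 for Psap, -0.0729 to 0.2102 for Atp6v0c, -0.1613 to 0.0852 for Ppt1 and -0.0671 to 0.0120 for Tpp1. Within Oligo3, 1 gene passed without a filter and 3 with edgeR. Ranges there were -0.0681 to 0.1837 for Atp6v0c, -0.0206 to 0.1456 for Psap, -0.1090 to 0.3373 for Cd63, -0.1622 to 0.1197 for Ppt1, -0.0499 to 0.0369 for Ctsb, -0.0871 to 0.2145 for Gabarap and -0.0113 to 0.1776 for Atp6v0b. Within Oligo4, edgeR gave 25 genes, Lamp1 was 0.0054 without the cortex library of KO mouse 3, and Ppt1 ranged from -0.1670 to 0.0254.

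For Oligo1 against other KO cells, genes past the threshold were 0 without a filter, 119 with edgeR, 1192 with mouse as a block (13 members), 1312 with library as a block (14 members), and 1060 with libraries weighted equally and a mouse block (12 members). They were 1 in hippocampus alone, 0 in cortex alone, 18 against Oligo3 cells only, and 1 without the cortex library of KO mouse 3. Newly past the threshold with the mouse block were Hexa 0.1379, Ctsb 0.1799, Lamp1 0.1813, Lamp2 0.1948, Cd63 0.8040, Sort1 -0.2680, Laptm4b -0.1297, Gm2a -0.1200, Atp6v0c -0.1118, Ctsf -0.0654, Atp6v0e 0.1455, Map1lc3a 0.3375, Atp6v0b -0.1340 and Atp6v1e1 -0.1282. With the library block they were Hexa 0.1576, Ctsb 0.1990, Lamp1 0.1276, Lamp2 0.2093, Cd63 0.7855, Sort1 -0.2628, Laptm4b -0.1000, Atp6v0c -0.1037, Atp6v0e 0.1453, Map1lc3a 0.3170, Atp6v0b -0.1007 and Atp6v1e1 -0.0930. Equal weights gave the same values, with Tfeb at 0.0809 past the threshold and Atp6v0c not. Psap was -0.0463 against Oligo3 cells only and ranged from -0.0005 to 0.0324 with each mouse left out.

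Between tissues, Lamp1 was -0.0251 and Ulk2 -0.0128 without the cortex library of KO mouse 3, with leave-out ranges of -0.0036 to 0.0221 for Gm2a, -0.0584 to 0.1692 for Lamp1 and -0.0184 to 0.0567 for Npc1. For the interaction, edgeR gave 1 gene and Naglu at 0.0455, and ranges were -0.0110 to 0.0033 for Gla, -0.0064 to 0.0046 for Naglu, -0.0016 to 0.0266 for Mcoln1 and -0.0560 to 0.6265 for Lamp1. The mean over members ranged from -0.0067 to 0.0380 between KO and WT in all cells, -0.0148 to 0.0323 over Oligo2 to Oligo4, -0.0166 to 0.0277 in Oligo2, -0.0143 to 0.0363 in Oligo3, -0.0032 to 0.0389 in Oligo4, and 0.0189 to 0.0372 for Oligo1 against other KO cells. It was 0.0082 in Oligo1 without Cd63. Leaving out a mouse breaks an age pair, so ranges between genotypes also hold the difference between pairs. Leaving out the cortex library of KO mouse 3 leaves that mouse with hippocampus alone. Values between genotypes without it thus also hold a difference between tissues.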

Other observations

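RNA of red blood cells varied widely between libraries: the summed level of these genes, mostly Hbb-bs, ran from 0.245 UMIs per cell in the WT hippocampus of mouse 4 to 9.98 in that of mouse 1. Its part in any result was not tested.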
